A study of Mus musculus with 36 samples.

Results

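The E2F family comprises 8 mouse genes, E2f1 to E2f8, which were taken by gene symbol from a table of 27179 genes. All 8 were in the table, and all 8 were among the 12321 genes with enough reads to be tested. Their transcripts were followed in 36 RNA-seq libraries from 3 Em-myc mouse lymphoma lines, AH47A, 287 and 621. Em-myc denotes a Myc transgene under an immunoglobulin heavy chain enhancer, which drives Myc in B cells, and all groups carried it. Each line carried either a negative control construct or 1 of 5 TRP53 mutants, whose labels are V170M, R270H, R246Q, I192S and G280. Each combination of line and construct was sampled after 12 h of nutlin-3a at 5 µM, together with the caspase inhibitor QVD-OPH at 25 µM, and untreated. Nutlin-3a blocks the binding of MDM2 to p53 and so activates the wild-type p53 that the design text ascribes to these lines. The design text calls the expressed mutants human TRP53, and the reads were counted on mouse genes. Every combination of construct and treatment therefore had 3 libraries, 1 from each line, and each line had 6 libraries per treatment. The sources used here do not say whether untreated cultures received the caspase inhibitor, so the nutlin-3a response can also hold an effect of that inhibitor. Nothing says that libraries came from separate cultures of a line, so p-values measure the spread between these libraries.

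E2F proteins bind a shared DNA sequence in the promoters of genes for S phase entry and DNA replication. The classical members E2F1 to E2F5 bind DNA with a DP partner (Tfdp1, Tfdp2), and the retinoblastoma family of pocket proteins (Rb1, Rbl1, Rbl2) binds and silences them. Cyclin-dependent kinases release this hold in G1, and the kinase inhibitor p21, the product of the p53 target Cdkn1a, restores it. E2F1, E2F2 and E2F3 mainly activate transcription, while E2F4 and E2F5 mainly repress it with p130 and p107. E2F6 lacks the pocket-binding region and works in a Polycomb-type repressor complex, and E2F7 and E2F8 repress without a DP partner. Several family genes are themselves E2F targets, and in human cells E2F7 is known as a direct p53 target.

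Libraries held 5404113 to 10718302 counted reads. Levels are given as CPM, reads scaled to the size of the library, with TMM factors that correct for differences in composition. As a check of the labels, Trp53 had 446 to 2024 CPM after nutlin-3a and 693 to 2587 CPM untreated in the mutant libraries, against 261 to 446 CPM and 206 to 291 CPM in the control libraries. Cdkn1a averaged 242 ± 137 CPM in nutlin-3a-treated mutant libraries, against 2.75 ± 1.85 CPM in untreated ones (SD, n = 15 each). In control libraries it averaged 413 ± 186 CPM after nutlin-3a, against 4.18 ± 2.72 CPM untreated (SD, n = 3 each). The B-lineage origin was checked on 8 marker genes, of which 7 or 8 exceeded 1 CPM in every line and treatment. Their summed level was 1158 to 1799 CPM after nutlin-3a and 1545 to 2187 CPM untreated. The 6 myeloid markers summed to 5.99 to 54.0 CPM after nutlin-3a and 3.78 to 23.1 CPM untreated, with only 2 of the 6 above 1 CPM and Itgam and Cd68 leading. Of 6 T cell markers at most 1, Zap70, exceeded 1 CPM, and Cd4 was at 0 throughout. The part of these shifts in the results was not tested. In bulk libraries, fewer cells of a kind and less RNA per cell cannot be told apart.

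Untreated levels per kilobase of the deposited gene length set E2f4 well above the rest. E2f4, the main repressor partner of p130, had 149 ± 15.1 CPM per kb over the 18 untreated libraries (SD). E2f2 followed with 47.6 ± 11.4 CPM per kb, E2f8 with 40.2 ± 4.17 and E2f1 with 29.2 ± 3.42. E2f3 had 18.7 ± 0.971 CPM per kb and E2f5 had 11.7 ± 2.65. E2f7 with 7.77 ± 3.41 CPM per kb and E2f6 with 7.13 ± 6.29 CPM per kb were lowest. E2f2 and E2f8 differed by less than the spread of E2f2, and E2f7 and E2f6 by less than the spread of either. The order also changed with the line. E2f2 had 62.7 ± 4.79 CPM per kb in line 287 and stood above E2f8 there, at 35.3 ± 2.17 (SD, n = 6 each). In line 621, E2f6 had 14.9 ± 0.588 CPM per kb and E2f7 had 3.22 ± 0.335, whereas in AH47A E2f7 had 9.40 ± 0.785 CPM per kb and E2f6 had 4.30 ± 4.54.

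**Figure D1:**
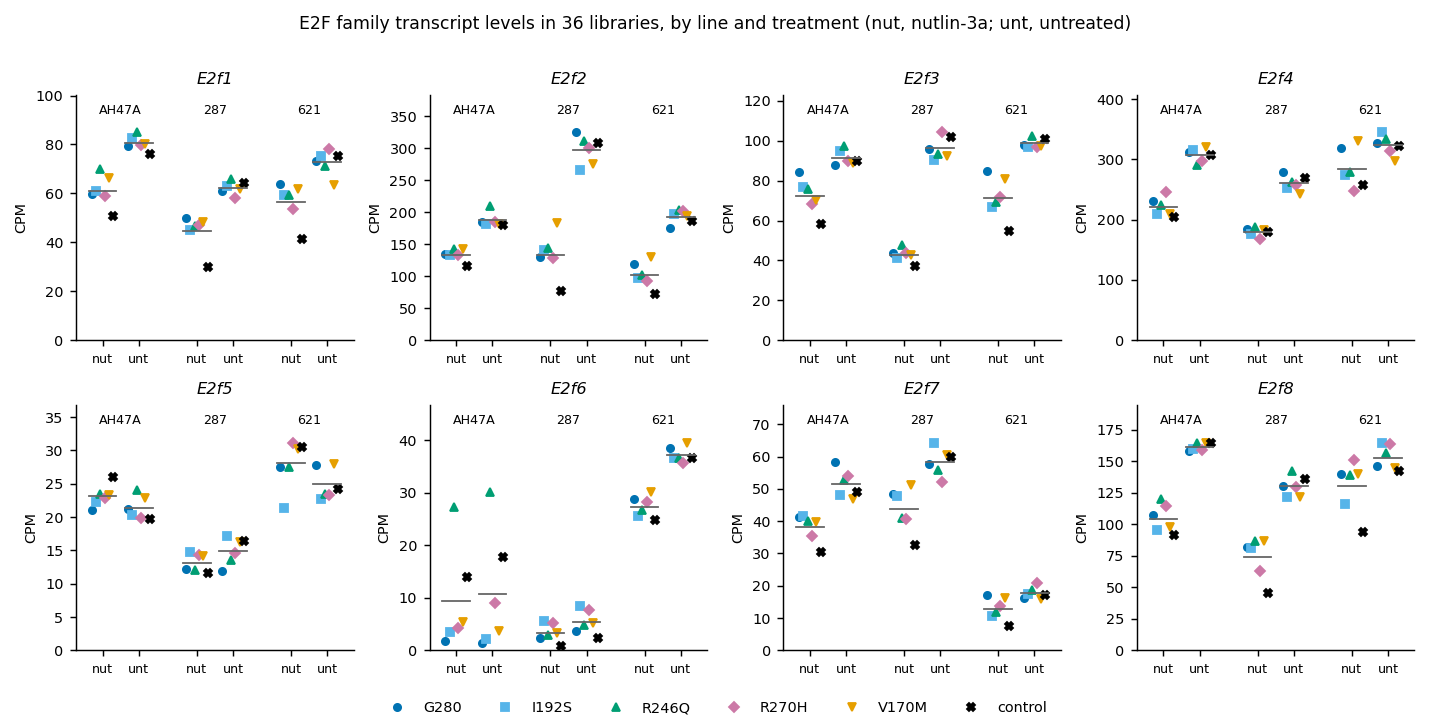
CPM of the 8 E2F genes (vertical axes, from 0) in each library, by line, with nutlin-3a (nut) left of untreated (unt); symbols mark the construct and grey bars the mean of 6 libraries. E2f6 spreads over constructs in AH47A, at 1.31 to 30.2 CPM untreated, and E2f7 is low in line 621, at 15.8 to 20.8 CPM untreated.

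On GRCm38 the family lies on 8 chromosomes. E2f1 (NCBI gene 13555) is at chr2:154559400-154569892 on the minus strand, E2f2 (242705) at chr4:136172274-136196057 on the plus strand and E2f3 (13557) at chr13:29906575-29986064 on the minus strand. E2f4 (104394) is at chr8:105297663-105305370 on the plus strand and E2f5 (13559) at chr3:14578602-14606309 on the plus strand. E2f6 (50496) is at chr12:16810909-16826752 and E2f7 (52679) at chr10:110745439-110787384, both on the plus strand, and E2f8 (108961) is at chr7:48866429-48882073 on the minus strand. The sources used here do not give the strand setting of the counting, so reads from overlapping genes on the other strand could enter. Exons overlap by 610 bases between E2f8 and Gm2788, by 86 between E2f7 and 1700020G17Rik and by 26 between E2f5 and 1810022K09Rik. Gm2788 had 2 to 17 reads per library and 1700020G17Rik had 0 to 6, while 1810022K09Rik had 38 to 180.

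RefSeq promoter windows (GRCm38.p6, 300 bases around an annotated start, most of them upstream) were at hand for 6 of the 8 genes, as 8 windows. The only windows of E2f1 (chr2:154569377-154569676) and E2f8 (chr7:48881547-48881846) lie inside the gene spans given above. The sequence at the outer start of these genes was therefore not searched. Windows of E2f2 at chr4:136180532-136180831 and of E2f3 at chr13:29984342-29984641 also lie inside their genes. The canonical E2F site (TTTCCCGC, TTTCGCGC, TTTGCCGC or TTTGGCGC, on either strand) was in 3 of the 8 windows and in 2.26% of all 32851 windows in the table. These 3 windows are printed because they carry the letters that the family's own proteins are known to read. Each is written 5′ to 3′ along its gene, and capitals mark the E2F site. It starts 39 bases after the gene start in E2f2, shortly before it in E2f3 and 198 before it in E2f7.
E2f2, chr4:136172024-136172323, plus strand: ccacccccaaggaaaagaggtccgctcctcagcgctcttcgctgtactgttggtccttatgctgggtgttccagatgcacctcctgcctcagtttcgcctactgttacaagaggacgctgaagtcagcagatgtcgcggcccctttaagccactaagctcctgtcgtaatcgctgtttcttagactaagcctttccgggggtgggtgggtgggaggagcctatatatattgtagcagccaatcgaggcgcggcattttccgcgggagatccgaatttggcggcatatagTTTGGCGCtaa
E2f3, chr13:29986014-29986313, minus strand: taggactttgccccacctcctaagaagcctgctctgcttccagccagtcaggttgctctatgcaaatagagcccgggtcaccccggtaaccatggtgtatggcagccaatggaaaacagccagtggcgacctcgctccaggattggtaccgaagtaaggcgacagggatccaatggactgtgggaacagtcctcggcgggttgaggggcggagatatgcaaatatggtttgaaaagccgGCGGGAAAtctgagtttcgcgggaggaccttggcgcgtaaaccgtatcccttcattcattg
E2f7, chr10:110745189-110745488, plus strand: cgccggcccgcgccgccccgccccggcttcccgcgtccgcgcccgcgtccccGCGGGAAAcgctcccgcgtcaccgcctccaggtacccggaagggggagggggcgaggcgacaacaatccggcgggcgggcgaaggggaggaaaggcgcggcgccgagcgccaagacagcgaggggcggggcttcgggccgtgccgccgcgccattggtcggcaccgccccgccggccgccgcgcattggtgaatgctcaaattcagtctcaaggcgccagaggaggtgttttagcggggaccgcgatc
The CHR word (TTTGAA or TTCGAA, either strand), through which the MuvB complex binds, was in 3 of the 8 windows and in 19.2% of all windows. CCAAT, either strand, was in 5 of 8 and in 37.4% of all, and the E box CACGTG was in 1 of 8 and in 7.15% of all. The p53 core pair (CATG, then 6 bases of any kind, then CATG) was in 0 of 8 and in 0.712% of all. A match is a description of letters and not evidence of binding, and no match says only that the letters are not in the window.

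After nutlin-3a, averaged over the 6 constructs, 6 of the 8 E2F transcripts fell and none rose. They were all 3 activators, E2f4 and both atypical repressors, with E2f2 and E2f3 changing most. This count stands against a broad background, since 36.1% of all genes tested were called lower and 32.8% higher in the same comparison (edgeR quasi-likelihood test, adjusted p below 0.05). The median log2 change was -0.44 over the 8 members and -0.03 over all genes tested. Libraries of a line share that line's response, so p-values of this mean can be too small.

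Among the activators, E2f1 had 29.9, 56.3 and 70.0 CPM (lowest, median and highest of 18 libraries) after nutlin-3a, against 58.0, 74.3 and 84.9 CPM untreated. It fell in 18 of 18 pairs of a line and construct (log2 -0.43 ± 0.04 SE, adjusted p = 1.69e-10). E2f2 had 71.6, 129 and 183 CPM after nutlin-3a, against 176, 199 and 324 CPM untreated. Its drop was the largest of the family and was seen in 18 of 18 pairs (log2 -0.87 ± 0.07, adjusted p = 1.02e-10). E2f3 had 37.3, 67.5 and 84.6 CPM after nutlin-3a, against 87.7, 96.3 and 104 CPM untreated. E2f3 was lower in 18 of 18 pairs (log2 -0.66 ± 0.08, adjusted p = 4.63e-08). How many of all genes tested fell in as many pairs was not counted, here or for the members below.

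Of the pocket-bound repressors only E2f4 passed the test. E2f4 had 168, 217 and 331 CPM after nutlin-3a, against 242, 303 and 345 CPM untreated, and was lower in 17 of 18 pairs (log2 -0.40 ± 0.05, adjusted p = 2.10e-08). E2f5 had 11.6, 22.6 and 31.2 CPM after nutlin-3a, against 11.9, 20.8 and 27.9 CPM untreated, and was lower in 9 of 18 pairs and higher in 9. Its mean change was 0.04 ± 0.06 on the log2 scale (adjusted p = 0.568), and without line 287 it was called higher (0.16, adjusted p = 0.0370). E2f6, the Polycomb-type member, changed by -0.42 ± 0.29 (adjusted p = 0.211), and without AH47A it was called lower (adjusted p = 0.0177). E2f6 was lower in 15 of 18 pairs, and the 3 pairs in which it was higher were all in AH47A.

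Both atypical repressors fell. E2f8 had 45.3, 96.9 and 151 CPM after nutlin-3a, against 122, 152 and 165 CPM untreated, in 18 of 18 pairs (log2 -0.57 ± 0.07, adjusted p = 3.64e-08). E2f7, the member known as a p53 target in human cells, had 7.58, 37.5 and 51.2 CPM after nutlin-3a, against 15.8, 50.6 and 64.3 CPM untreated. E2f7 was lower in 16 of 18 pairs (log2 -0.45 ± 0.05, adjusted p = 4.19e-08). The 2 pairs in which E2f7 was higher were in line 621.

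The drop varied in size between constructs, and for E2f1, E2f2, E2f3, E2f7 and E2f8 it was largest in cultures with the negative control. In the control cultures E2f1 had 50.7, 29.9 and 41.4 CPM after nutlin-3a in AH47A, 287 and 621, against 76.2, 64.4 and 75.5 CPM untreated. E2f3 had 58.4, 37.3 and 54.7 CPM after nutlin-3a in these lines, against 89.9, 102 and 101 CPM untreated. E2f2 was left at 64.4%, 25.0% and 38.4% of its untreated level in the 3 lines, and E2f8 at 55.5%, 33.3% and 66.3%. E2f7 was left at 62.3%, 54.2% and 44.4%. In the control, 6 members were called lower, against 20.8% of all genes tested. Beside E2f1 and E2f2 these were E2f3 (log2 -0.99 ± 0.19, adjusted p = 0.000306), E2f4 (-0.50 ± 0.11, adjusted p = 0.000945), E2f7 (-0.87 ± 0.13, adjusted p = 2.21e-05) and E2f8 (-0.99 ± 0.16, adjusted p = 5.65e-05). Without the line term, 4 were called, and E2f4 (adjusted p = 0.148) and E2f7 (adjusted p = 0.495) were not. In that fit 522 of all 12321 genes tested were called lower in the control.

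For E2f1, E2f2, E2f3, E2f7 and E2f8, the ratio of nutlin-3a to untreated was higher with every mutant than with the control in every line, which makes 15 of 15 comparisons for each of these 5 genes. Over all genes tested, 4.68% had this pattern. The same count was 14 of 15 for E2f6, 10 of 15 for E2f4 and 6 of 15 for E2f5, and shares of all genes at these counts were not taken. The 5 mutants of a line share 1 control ratio, so the 15 comparisons of a gene are not independent. Members called lower numbered 6 with I192S (background 11.2% of all genes), 6 with R246Q (9.41%), 6 with R270H (14.3%) and 3 with G280 (6.70%). With I192S, R246Q and R270H these were the 6 members called lower in the control, and with G280 they were E2f1, E2f2 and E2f4. Without line 287, 0 members were called with G280, 3 with I192S and 2 with R246Q. Without line 621, 3 were called with I192S, 1 with R246Q and 3 with R270H. The shares of all genes called in these smaller fits are not given, so these counts do not set the members apart from other genes. With V170M no member was called (background 2.45% lower and 5.77% higher) by edgeR or by DESeq2, although 5 members had an unadjusted p below 0.05. How many of all genes tested had such an unadjusted p was not counted. The V170M changes were -0.22 ± 0.09 for E2f1, -0.51 ± 0.18 for E2f2, -0.57 ± 0.19 for E2f3 and -0.42 ± 0.16 for E2f8, with adjusted p from 0.0632 to 0.114. A model that lets each line respond by its own amount called 5 members lower with V170M (background 14.0%), among them E2f2 (adjusted p = 0.000589) and E2f3 (adjusted p = 3.84e-06), and 5 with G280 (background 17.8%).

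**Figure D2:**
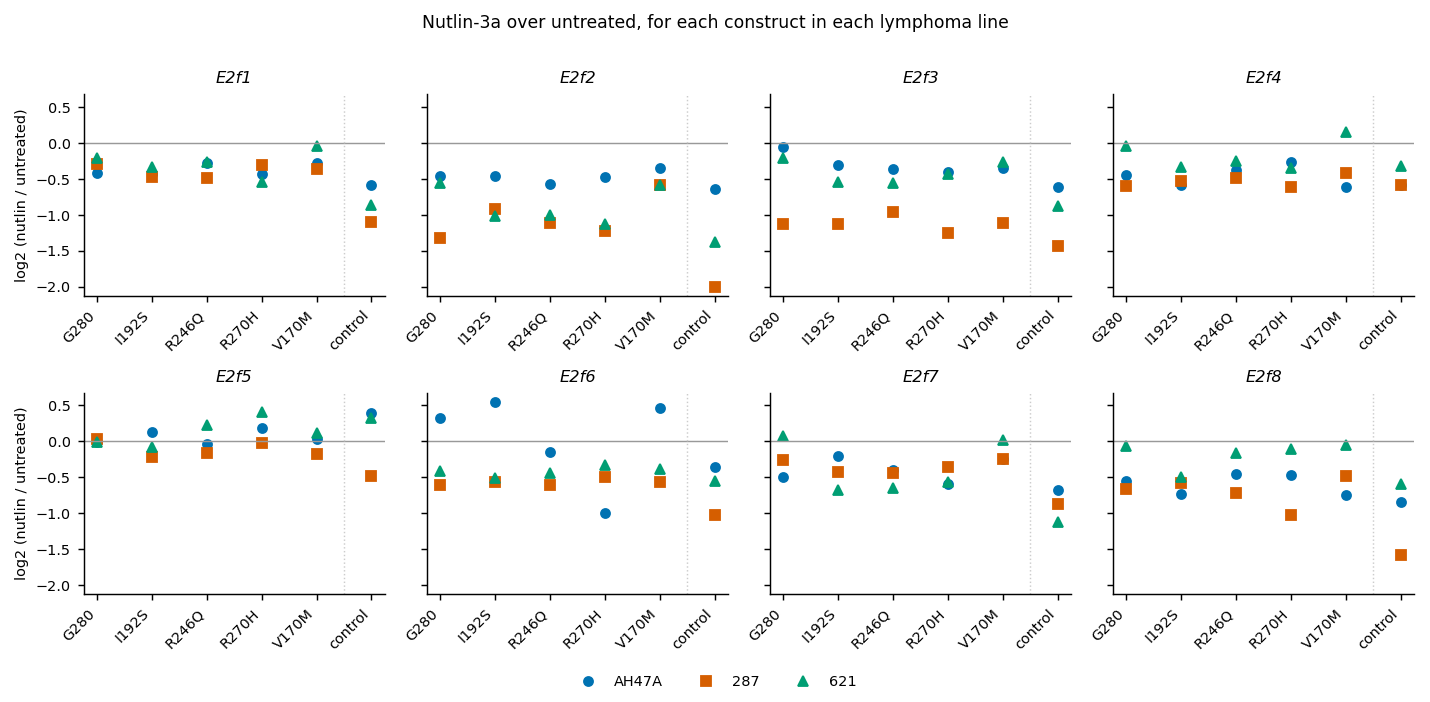
Log2 ratio of nutlin-3a to untreated CPM, each plus 0.5 (vertical axes), of each E2F gene for the 5 mutants and, right of the dotted line, the negative control; symbols mark the line. In E2f1, E2f2, E2f3, E2f7 and E2f8 the control point is the lowest of the 6 constructs in each of the 3 lines.

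Setting each mutant against the control at the same condition asks whether the mutants alter E2F transcripts before or after nutlin-3a. Before treatment, no member was called between the mean of the 5 mutants and the control by edgeR (background 0.00812% in each direction), by DESeq2 or at an unadjusted p below 0.05. E2f1, E2f2, E2f3, E2f4, E2f5, E2f7 and E2f8 differed by -0.04 to 0.03 on the log2 scale, with SE of 0.07 to 0.15, and E2f6 by -0.19 ± 0.54. After nutlin-3a, 2 members were higher with the mutants, E2f1 (log2 0.49 ± 0.07, adjusted p = 0.00213) and E2f7 (0.53 ± 0.11, adjusted p = 0.0177), against 0.243% of all genes tested. E2f2 (0.53 ± 0.14, adjusted p = 0.0700), E2f8 (0.51 ± 0.13, adjusted p = 0.0593) and E2f3 (0.35 ± 0.15, adjusted p = 0.275) lay on the same side without passing. E2f4 (0.10 ± 0.09), E2f5 (-0.07 ± 0.12) and E2f6 (-0.09 ± 0.56) did not pass either. Without line 621 the adjusted p of E2f1 was 0.152, and that of E2f7 reached 0.211 when single lines or control libraries were left out.

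The values behind this difference separated in every line. For E2f1 the 5 mutants had 59.0 to 70.0 CPM after nutlin-3a in AH47A, against 50.7 CPM in the control. They had 45.1 to 49.9 CPM in line 287, against 29.9 CPM, and 53.6 to 63.7 CPM in line 621, against 41.4 CPM in the control. For E2f7 the mutants had 35.5 to 41.6 CPM in AH47A, against 30.6 CPM in the control. They had 40.8 to 51.2 CPM in line 287, against 32.5 CPM, and 10.6 to 17.01 CPM in line 621, against 7.58 CPM in the control. E2f1, E2f2, E2f3, E2f7 and E2f8 had all 5 mutants above the control after nutlin-3a in each of the 3 lines, as had 4.12% of all genes tested. Untreated, none of the 8 members had this pattern, and 0.560% of all genes tested had it. The model with line-specific responses called these 5 members higher with the mutants after nutlin-3a (background 7.22%), with adjusted p from 2.65e-05 for E2f1 to 0.00115 for E2f7.

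The difference between the mutants' and the control's response was tested as an interaction. It was 0.50 ± 0.10 for E2f1, 0.52 ± 0.19 for E2f2, 0.39 ± 0.21 for E2f3, 0.50 ± 0.14 for E2f7 and 0.51 ± 0.18 for E2f8 on the log2 scale. None was called by edgeR (smallest adjusted p = 0.344, for E2f1), as was no gene of the table (background 0%), while 4 members had an unadjusted p below 0.05. The share of all genes at that unadjusted cutoff was not counted. DESeq2 called E2f1 (adjusted p = 0.0258). The model with line-specific responses called 4 members (background 1.85% higher), namely E2f1 (adjusted p = 0.00602), E2f2 (adjusted p = 0.00999), E2f3 (adjusted p = 0.0140) and E2f8 (adjusted p = 0.0189).

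The comparisons of single mutants with the control share the same 3 control libraries. After nutlin-3a, E2f1 was higher than in the control with G280 (log2 0.52 ± 0.09, adjusted p = 0.0272, background 0.0162% higher). E2f1 was also higher with R246Q (0.54 ± 0.09, adjusted p = 0.0300, background 0.0243%) and with V170M (0.54 ± 0.09, adjusted p = 0.0126, background 0.114% higher and 0.365% lower). With V170M, E2f7 was higher as well (0.65 ± 0.13, adjusted p = 0.0272), and E2f2 differed by 0.75 ± 0.18 (adjusted p = 0.0551). With no filter on low counts, the adjusted p of E2f1 was 0.0811 with G280 and 0.0610 with R246Q. Without the line term no member was called after nutlin-3a in the comparison of any single mutant with the control, and no other gene was either. E2f1 differed by 0.45 ± 0.09 with I192S (adjusted p = 0.0775) and by 0.40 ± 0.09 with R270H (adjusted p = 0.195). With I192S and R270H edgeR called no member (background 0.00812% higher in each). DESeq2 called 1 member each, among 2 genes called higher with I192S and 8 with R270H. With each, 4 members had an unadjusted p below 0.05, and the share of all genes at that cutoff was not counted. Whether the 5 mutants differ among themselves was tested directly. No member was called in their untreated levels (background 0.0325%), their levels after nutlin-3a (0.0243%) or their responses (0%), by edgeR or DESeq2 or at an unadjusted p below 0.05. The smallest unadjusted p was 0.152.

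**Figure D3:**
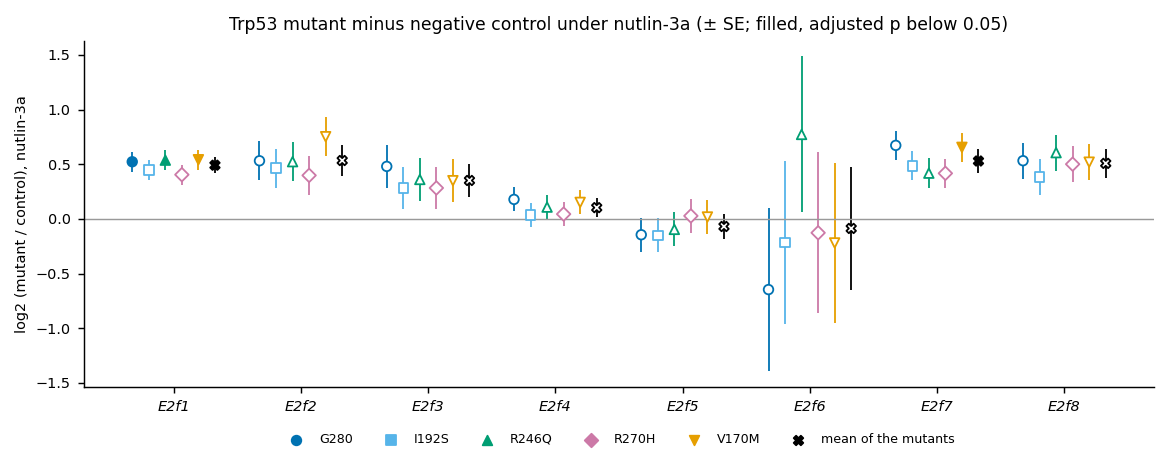
Log2 of mutant over control after nutlin-3a (vertical axis, ± SE from edgeR) for each E2F gene, for the 5 mutants and their mean; filled symbols have an adjusted p below 0.05. E2f1 lies at 0.40 to 0.54 for every mutant, and E2f6 has the widest errors.

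The 3 lines responded to nutlin-3a by different amounts. In each line, constructs served as replicates and the same 6 members were called lower, namely E2f1, E2f2, E2f3, E2f4, E2f7 and E2f8. In line 621 the call of E2f4 was lost in a fit on its own libraries (adjusted p = 0.0521), and that of E2f8 without the construct term (adjusted p = 0.0563). The background of lower calls was 22.2% in AH47A, 35.7% in line 287 and 28.6% in line 621. Lines differed in the response of E2f2 (F test, adjusted p = 6.04e-06), E2f3 (2.06e-09), E2f4 (0.000641) and E2f8 (0.000152), 4 of 8 members against 60.3% of all genes. E2f1 (adjusted p = 0.355) and E2f7 (0.964) gave no call. The E2f1 response was -0.50 ± 0.06 in line 287, -0.40 ± 0.06 in AH47A and -0.37 ± 0.06 in line 621, and the E2f7 response was -0.44 ± 0.08, -0.44 ± 0.08 and -0.48 ± 0.10 in the same order.

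Line 287 had the largest drop of E2f2 and E2f3. E2f3 had 42.7 ± 3.48 CPM after nutlin-3a in line 287, against 96.3 ± 5.56 CPM untreated, and its response was -1.18 ± 0.06. In AH47A it had 72.3 ± 8.82 CPM after nutlin-3a, against 91.5 ± 3.84 CPM untreated (SD, n = 6 each), with a response of -0.35 ± 0.06. The 287 minus AH47A difference of responses was -0.83 ± 0.08 for E2f3 (adjusted p = 2.19e-09) and -0.71 ± 0.10 for E2f2 (adjusted p = 2.34e-06), 2 of 8 members against 22.6% of all genes lower. E2f2 had 134 ± 34.1 CPM after nutlin-3a in line 287, against 297 ± 22.7 CPM untreated. In AH47A it had 134 ± 9.73 CPM after nutlin-3a, against 187 ± 11.5 CPM untreated, so the treated means were alike and the untreated ones were not. Myeloid markers summed to 34.3 to 54.0 CPM after nutlin-3a in line 287, against 14.4 to 23.1 CPM untreated, and their part in these values was not tested.

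Line 621 had the smallest drops of E2f4 and E2f8. E2f8 had 130 ± 21.0 CPM after nutlin-3a in line 621, against 153 ± 9.87 CPM untreated, with a response of -0.25 ± 0.08. In line 287 it had 74.4 ± 16.7 CPM after nutlin-3a, against 130 ± 7.99 CPM untreated, with a response of -0.83 ± 0.08. The 621 minus 287 difference of responses was 0.58 ± 0.11 for E2f8 (adjusted p = 7.96e-05), 0.70 ± 0.08 for E2f3 (5.09e-08), 0.35 ± 0.08 for E2f4 (0.000570) and 0.34 ± 0.14 for E2f5 (0.0433), 4 members higher against 19.9% of all genes. The 621 minus AH47A difference was 0.29 ± 0.08 for E2f4 (adjusted p = 0.00497), 0.39 ± 0.11 for E2f8 (0.00702) and -0.46 ± 0.10 for E2f2 (0.00121), with backgrounds of 15.8% in both directions.

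**Figure D4:**
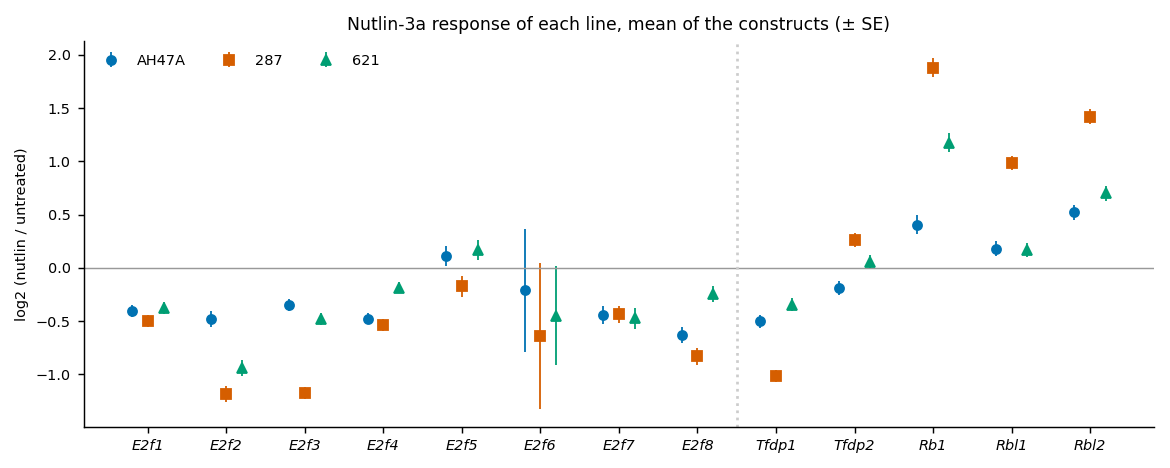
Log2 response to nutlin-3a in each line (vertical axis, mean over 6 constructs ± SE from edgeR) of the 8 E2F genes and, right of the dotted line, their DP partners and pocket proteins. E2f2 and E2f3 fell most in line 287 (-1.19 and -1.18), where Rb1, Rbl1 and Rbl2 rose most.

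Untreated, the lines also differed in the levels of family members. E2f7 was low in line 621, with 15.8 to 20.8 CPM, against 52.2 to 64.3 CPM in line 287 and 46.9 to 58.3 CPM in AH47A. The difference was -1.73 ± 0.09 from line 287 (adjusted p = 3.42e-16) and -1.54 ± 0.09 from AH47A (adjusted p = 4.96e-15). E2f2 was high in line 287, with 266 to 324 CPM, against 180 to 210 CPM in AH47A (log2 0.67 ± 0.07, adjusted p = 5.22e-09). E2f5 was low in line 287, with 11.9 to 17.2 CPM, against 19.8 to 24.1 CPM in AH47A (log2 -0.52 ± 0.10, adjusted p = 3.71e-05). Line 287 also had lower E2f1 (-0.37 ± 0.06), E2f8 (-0.31 ± 0.08) and E2f4 (-0.24 ± 0.05) than AH47A, so that 4 members were lower and 1 higher, with backgrounds of 29.2% and 29.7%. Line 621 differed from AH47A in E2f6 and E2f7 by over 1 log2 unit and in E2f1 (-0.15 ± 0.06, adjusted p = 0.0290) and E2f5 (0.22 ± 0.09, adjusted p = 0.0446) by little, 2 members in each direction against 29.6% lower and 29.1% higher. The calls of E2f1 and E2f5 were lost when the untreated V170M library of AH47A or of line 621 was left out. Between lines 621 and 287, 5 members were higher in 621 and 2 lower, with backgrounds of 29.7% and 30.7%. E2f3 was the member closest across lines untreated, at 91.5 to 98.7 CPM on average, and passed in none of the 3 pairs.

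Of the 8 members, E2f6 had the widest spread over constructs in AH47A and in line 287, in both treatments. In line 621 it was even, with 24.8 to 30.2 CPM after nutlin-3a and 35.7 to 39.6 CPM untreated. In AH47A, R246Q had 27.3 CPM after nutlin-3a and 30.2 CPM untreated. R270H had 4.31 CPM after nutlin-3a and 9.07 CPM untreated, and V170M had 5.43 and 3.78 CPM. I192S had 3.44 CPM after nutlin-3a and 2.19 CPM untreated, and G280 had 1.77 and 1.31 CPM, on counts of 14 and 10 reads. The AH47A control had 13.9 CPM after nutlin-3a and 17.8 CPM untreated, below R246Q and above the other 4 mutants. The highest AH47A culture exceeded the lowest 15.4-fold after nutlin-3a and 23.0-fold untreated, and both treatments had R246Q first, the control second, and I192S and G280 last. Of all genes tested, 0.0974% spread over the AH47A constructs at least as far in both treatments (smaller of the 2 log2 ranges 3.61, against a median of 0.32 over all genes).

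In line 287 E2f6 was low throughout, with 0.862 to 5.52 CPM after nutlin-3a and 2.28 to 8.37 CPM untreated. Here the order was I192S, R270H, V170M, R246Q, G280 and control in both treatments, so the control was lowest and not second. With 1 library per line, construct and treatment, a difference between constructs of 1 line has no replicate beyond the 2 treatments, and construct and culture cannot be told apart. Over the 3 lines, the mean of the mutants minus the control was -0.09 ± 0.56 after nutlin-3a and -0.19 ± 0.54 untreated on the log2 scale, and neither passed the test. Line 621 exceeded line 287 by 2.83 ± 0.54 on the log2 scale untreated (adjusted p = 0.000111) and AH47A 4.01-fold (log2 SE 0.52, adjusted p = 0.00223).

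In fits on the libraries of 1 line alone, with the construct as a block, E2f6 fell after nutlin-3a in line 621 (log2 -0.42 ± 0.07, adjusted p = 0.000208) and in line 287 (-0.65 ± 0.14, adjusted p = 0.000620). In AH47A it changed by -0.14 ± 0.17 (adjusted p = 0.519). The joint model gave -0.45 ± 0.47 for line 621 and -0.64 ± 0.69 for line 287, with adjusted p of 0.440 and 0.412. Germline genes known to be silenced through E2F6 stayed near 0 in all libraries: the 8 listed genes had 47 reads in all 36 libraries together, at most 2 in any 1 library, and Mael and Tdrkh had none. Of the 12 other genes of its repressor complex, 3 rose after nutlin-3a and 6 fell, against 32.8% higher and 36.1% lower over all genes tested. The 6 that fell changed by -0.29 to -0.12 on the log2 scale. The 3 that rose had the largest changes and were the ubiquitin ligase genes Rnf2 (log2 0.65 ± 0.08, adjusted p = 1.66e-07) and Ring1 (0.32 ± 0.08, adjusted p = 0.000714) and Mga, which encodes a DNA-binding subunit (0.54 ± 0.11, adjusted p = 6.40e-05).

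**Figure D5:**
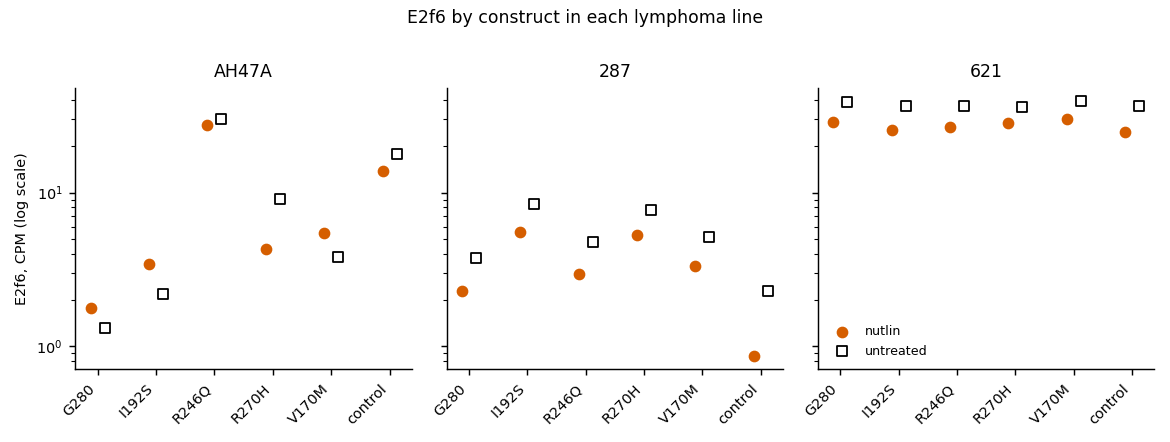
E2f6 in CPM (vertical axis, log scale) for the 5 mutants and the control in each line, nutlin-3a as filled circles and untreated as open squares. In AH47A the values run from 1.31 to 30.2 CPM with the same constructs high in both treatments, and in line 621 from 24.8 to 39.6 CPM.

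Transcripts of the DP partner Tfdp1 and of the pocket proteins moved in opposite directions after nutlin-3a. Tfdp1, the DNA-binding partner of the classical E2Fs, fell (log2 -0.62 ± 0.07, adjusted p = 7.93e-09), while Tfdp2 changed by 0.04 ± 0.05 (adjusted p = 0.501). By line, Tfdp2 fell in AH47A (-0.19 ± 0.07, adjusted p = 0.0211), rose in line 287 (0.26 ± 0.07, adjusted p = 0.000919) and changed by 0.05 ± 0.07 in line 621 (adjusted p = 0.528). Rb1, which holds the activators, rose (1.16 ± 0.13, adjusted p = 2.10e-08), as did Rbl2, which encodes p130 (0.88 ± 0.09, adjusted p = 2.26e-09), and Rbl1, which encodes p107 (0.45 ± 0.08, adjusted p = 4.22e-05). Rb1 had 180 to 323 CPM after nutlin-3a in line 287, against 63.5 to 71.7 CPM untreated, a response of 1.88 ± 0.09. In AH47A it had 73.5 to 134 CPM after nutlin-3a, against 61.1 to 76.0 CPM untreated, a response of 0.41 ± 0.09. Rbl1 responded by 0.99 ± 0.06 in line 287, 0.18 ± 0.07 in AH47A and 0.17 ± 0.07 in line 621. Between the mean of the mutants and the control after nutlin-3a, none of these 5 passed the test, with Rb1 at -0.59 ± 0.23 (adjusted p = 0.211).

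Genes that act upstream of the family in G1 were also examined. Of 16 listed G1 regulators 14 were tested, and 2 rose and 7 fell in the mean response, against 32.8% higher and 36.1% lower over all genes tested, with a median log2 change of -0.35. Cdkn1a, the p53 target encoding p21, rose most (6.43 ± 0.21, adjusted p = 4.01e-19), and the D-type cyclin genes Ccnd1 (-1.21 ± 0.14, adjusted p = 3.49e-08) and Ccnd3 (-1.05 ± 0.10, adjusted p = 5.76e-10) fell most. Of 7 genes of the MuvB complex and its partners 4 rose and 2 fell, against the same 32.8% higher and 36.1% lower. They were led by Lin52 (0.58 ± 0.07, adjusted p = 9.80e-08), Mybl2 (0.40 ± 0.15, adjusted p = 0.0243) and Lin54 (0.25 ± 0.05, adjusted p = 2.74e-05). Mybl2, the B-Myb gene, rose by 1.46 ± 0.07 in line 287 and fell by 0.24 on the log2 scale in line 621 (-0.24 ± 0.07, adjusted p = 0.00592), with 0.01 ± 0.07 in AH47A.

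Of 38 known E2F target genes of G1/S, 22 fell and 5 rose in the mean response, and 11 gave no call, against 36.1% lower and 32.8% higher over all genes tested. Their median log2 change was -0.19, against -0.03 over all genes. The 3 largest changes were drops of Orc1, a subunit of the origin recognition complex (-0.84 ± 0.10, adjusted p = 2.14e-08), Ung, which removes uracil from DNA (-0.84 ± 0.12, adjusted p = 1.24e-06), and Dck, a nucleoside kinase (-0.67 ± 0.06, adjusted p = 5.76e-10). After nutlin-3a, 5 of the 38 were higher with the mutants than with the control and none was lower, against a background of 0.243% higher. Named after their values were seen, they were Uhrf1 (0.63 ± 0.12), Slbp (0.52 ± 0.09), Pcna (0.52 ± 0.10), Dck (0.51 ± 0.12) and Gmnn (0.44 ± 0.10).

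Likeness of profiles over the 36 libraries was described by Pearson's r of log2 CPM, which mixes line, treatment and construct. Over all libraries the gene most like E2f2 was Vav1 (r = 0.965), followed by Gnptab (0.942) and Uhrf1 (0.928). With the mean of each line and treatment taken off, so that differences between constructs remained, E2f8 was most like Clspn (0.903) and Pclaf (0.895), and E2f7 was most like Pcna (0.874). E2f6 was then most like Hoxa7 (0.815), Pvr (0.811) and Mtmr10 (0.805). Within the family on this measure, E2f1 and E2f2 had r = 0.811, E2f2 and E2f8 0.807, E2f1 and E2f8 0.762 and E2f1 and E2f7 0.732. With E2f1, E2f2 and E2f3, E2f4 had r of 0.351 to 0.484 and E2f5 had r of -0.12 to 0.03. The libraries share 3 lines, so these values describe this set and are given without a test.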

How the data were processed

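RNA was sequenced in 36 libraries. The authors deposited raw read counts per gene, made with bcl2fastq 1.8.4 and featureCounts on mm10 (GRCm38), per the submitters' processing notes. The sources used here give no aligner, annotation or strand setting. The 36 per-sample files held the same counts as the series table. Identifiers without a symbol (859, 0.303% of counts) were kept. The E2F genes and the other gene lists were chosen with earlier results of these data known.

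Counts were TMM-normalized and tested with edgeR 4.0.16 (R 4.3.3), robust quasi-likelihood fit, after filterByExpr with a minimum count of 10 over 12 groups, which kept 12321 genes and set 14858 aside. P-values were adjusted by Benjamini-Hochberg over all genes tested, at 0.05. Construct comparisons used 12 groups plus line over 36 libraries (22 residual degrees of freedom, biological coefficient of variation 16.0%). Line comparisons added line by treatment (20 and 9.68%), which is also the model with line-specific responses. The line named in the labels pairs libraries: all 198 same-line pairs deviated together from their group means (r of 0.629 to 0.929). All 8 members are named, all partners and pocket proteins, and of each other list the 3 called genes with the largest change. The genes most like E2f1 and the names of the E2F targets that rose are not reported here. Ratios within a pair used CPM plus 0.5, and log2 CPM for likeness a prior count of 2. The tests were also run on simulated counts, drawn from the gene means and spread of these data without a line effect. Depth was 5404113 to 10718302 counts per library. Promoters (GRCm38.p6) and gene coordinates (GRCm38) came from RefSeq, and strands and overlapping genes from GENCODE on GRCm38. Alternatives were RLE scaling, no filter, no line term, line-specific responses, DESeq2 1.42.0, fits on fewer libraries, and leaving out each line or library. Items added after the data were seen include the counts of genes with all mutants above or below the control and the spread of E2f6 over constructs. The names of the E2F targets higher with the mutants were added then too.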

Additional observations from a re-analysis of the deposited data

Results flagged for a closer look

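In 3 of 48 sets of 6 libraries (a gene in 1 line and treatment), 1 library lay far from the other 5, while chance flags about 1 in 20 sets. For E2f1 in line 287 after nutlin-3a, the control was lowest at 29.9 CPM with the next at 45.1 CPM, a gap of 0.759 of the range. For E2f2 in AH47A after nutlin-3a, the control was lowest at 116 CPM with the next at 133 CPM, a gap of 0.653. For E2f2 in AH47A untreated, R246Q was highest at 210 CPM with the next at 185 CPM, a gap of 0.816.

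The nutlin-3a response differed between the 3 lines by edgeR's F test for E2f2 (adjusted p = 6.04e-06), E2f3 (2.06e-09), E2f4 (0.000641) and E2f8 (0.000152). These were 4 of 8 members, against 60.3% of all genes tested, so such differences were not particular to the family. Between line 287 and AH47A the responses differed for E2f2 (adjusted p = 2.34e-06) and E2f3 (2.19e-09), both with the larger drop in line 287. Between line 621 and AH47A they differed for E2f2 (0.00121), with the larger drop in line 621, and for E2f4 (0.00497) and E2f8 (0.00702), with the smaller drop in line 621. Between lines 621 and 287 they differed for E2f3 (5.09e-08), E2f4 (0.000570), E2f5 (0.0433) and E2f8 (7.96e-05). The background was 22.6% lower and 24.3% higher for 287 minus AH47A and 15.8% in both directions for 621 minus AH47A. For 621 minus 287 it was 21.5% lower and 19.9% higher.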

How the results depend on the processing

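No value of a member reversed its direction while called, in any alternative tried. The 6 members called lower in the mean response stayed 6 under RLE scaling, no filter, DESeq2 and line-specific responses, and ranged from 6 to 7 when a line or library was left out. Without the line term as the replicate block, 5 were called in the mean response, 4 in the control, 1 with R270H, 0 each with R246Q, I192S and G280, and 0 higher with the mutants after nutlin-3a. Of all 12321 genes, that fit called 2780 lower in the mean response, 522 in the control and 111 with R270H. It called 30 lower with R246Q, 40 with I192S and 15 with G280, and 0 genes between the mutants and the control after nutlin-3a. Line-specific responses gave 5 members with G280, 5 with V170M, 5 higher with the mutants after nutlin-3a (1969 genes called in all, against 123 with an additive line term) and 4 in the difference of responses. DESeq2 gave 4 for the mutants after nutlin-3a (75 genes higher in all) and 1 for the difference of responses (1 gene in all). Fits on only the groups compared gave 1 with R270H, 2 with R246Q, 1 with I192S, 0 with G280, and 5 for the mutants after nutlin-3a. Over all genes, these fits called 429 of 11028 lower with R270H, 435 of 10882 with R246Q, 90 of 11007 with I192S and 13 of 10928 with G280. For the mutants after nutlin-3a, 453 of 11917 genes were called higher. No filter gave 2 members between untreated 621 and AH47A, against 4. Leaving out 1 line or library gave 0 to 2 members for V170M, 3 to 6 for R270H, 1 to 6 for R246Q, 3 to 6 for I192S, 0 to 4 for G280, 0 to 4 for the mutants after nutlin-3a and 2 to 4 between untreated 621 and AH47A. For G280 the low values came without line AH47A (1) or 287 (0), its AH47A nutlin-3a library (1) or either of its 287 libraries (0). For I192S, R246Q and R270H they came without lines 287 or 621 or without their own 287 libraries. For V170M, 2 were called without its nutlin-3a library in line 621. For the mutants after nutlin-3a, 1 was called without AH47A or the 287 or 621 control, 0 without line 621, and 4 without the G280 or R270H library of line 287. The cause of these shifts was not tested. Shares of all genes called when a line or library was left out are not given, so those counts do not set the members apart from other genes. E2f6 in AH47A and 287 rests on as few as 7 reads per library, which limits its precision, and intervals were not computed for single libraries.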
